A study of Mus musculus with 9 samples.

Results

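Metallothioneins and the genes that sense and move zinc were followed in 9 mouse RNA libraries with and without hypochlorous acid (HOCl), the oxidant that neutrophils make with myeloperoxidase. The group holds 9 genes of the 54838 in the count files, chosen by name: the metallothioneins Mt1 and Mt2, the zinc sensor Mtf1, the exporters Slc30a1, Slc30a5 and Slc30a6, and the importers Slc39a6, Slc39a10 and Slc39a14. B16F10 is a melanoma line of the C57BL/6 strain, grown in plates, with 3 untreated libraries and 3 from cells kept 5 h in medium with 600 µM HOCl. CD8+ T cells came from spleens of adult C57BL/6 mice, separated with a kit, with 2 untreated libraries and 1 given the same dose for the same time. B16F10 stands for a single melanoma line. Whether spleens were pooled is not stated. The labels do not say that the replicates were grown or taken separately. The p-values therefore reflect how far these libraries scatter, which could be technical scatter alone.

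Metallothioneins are small, cysteine-rich proteins that bind zinc and copper, and their thiols are readily oxidised by HOCl, which releases the metal. Free zinc binds the zinc fingers of MTF1, which then enters the nucleus and binds metal response elements (MREs) before Mt1, Mt2 and Slc30a1. SLC30 proteins carry zinc out of the cytosol, to the outside or into organelles, and SLC39 proteins carry it into the cytosol.

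Depth was 45.9 to 61.3 M counts in B16F10 and 49.9 and 52.1 M in T cells without HOCl. The single T cell library given HOCl was shallower, with 12.8 M counts, and unlike the rest: 37.4% of its counts were mitochondrial, against 0.5003 to 2.11% in the other 8. Despite its lower depth it held counts in 44225 genes, against 22855 to 25907 in the other 8. The summed level of 8 melanocyte markers was 32270 to 33824 CPM (counts per M counts) in B16F10, 127 and 32.1 CPM in untreated T cells, and 9038 CPM in T cells given HOCl. The sum of 8 CD8 T cell markers was 2832 and 2828 CPM in untreated T cells, 532 CPM with HOCl and 4.45 to 6.04 CPM in B16F10, except HOCl replicate 3 at 26.0 CPM. Untreated replicate 1 of B16F10 also stood apart from its group. The chi-square of counts per degree of freedom was 23.2 and 21.2 against its fellow replicates and 4.48 between those. Relative to them it read higher in short transcripts and lower in long ones (median log2 ratio 0.18 below 1200 bases and -0.20 from 6000 bases). Between the 2 untreated T cell libraries the chi-square per degree of freedom was far larger, at 393.

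In B16F10 cells given HOCl, the zinc exporter gene Slc30a1, the sensor gene Mtf1 and the importer gene Slc39a6 rose, and Mt1 fell. Slc30a1 rose 1.68-fold, Mtf1 1.33-fold and Slc39a6 1.15-fold, while Mt1 stood at 0.829 of its untreated level. The other 5 genes did not pass the test. Thus 3 of 9 were called higher and 1 lower, against 14.7% higher and 13.5% lower among the 16082 genes tested (28.3% in either direction). The median log2 fold change was 0.11 over the 9 genes and -0.01 over every gene tested. In 6 of the 9 genes the HOCl and untreated ranges did not overlap, which held for 43.6% of genes tested. In bulk RNA, fewer cells of a type and less RNA per cell cannot be told apart.

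**Figure D1:**
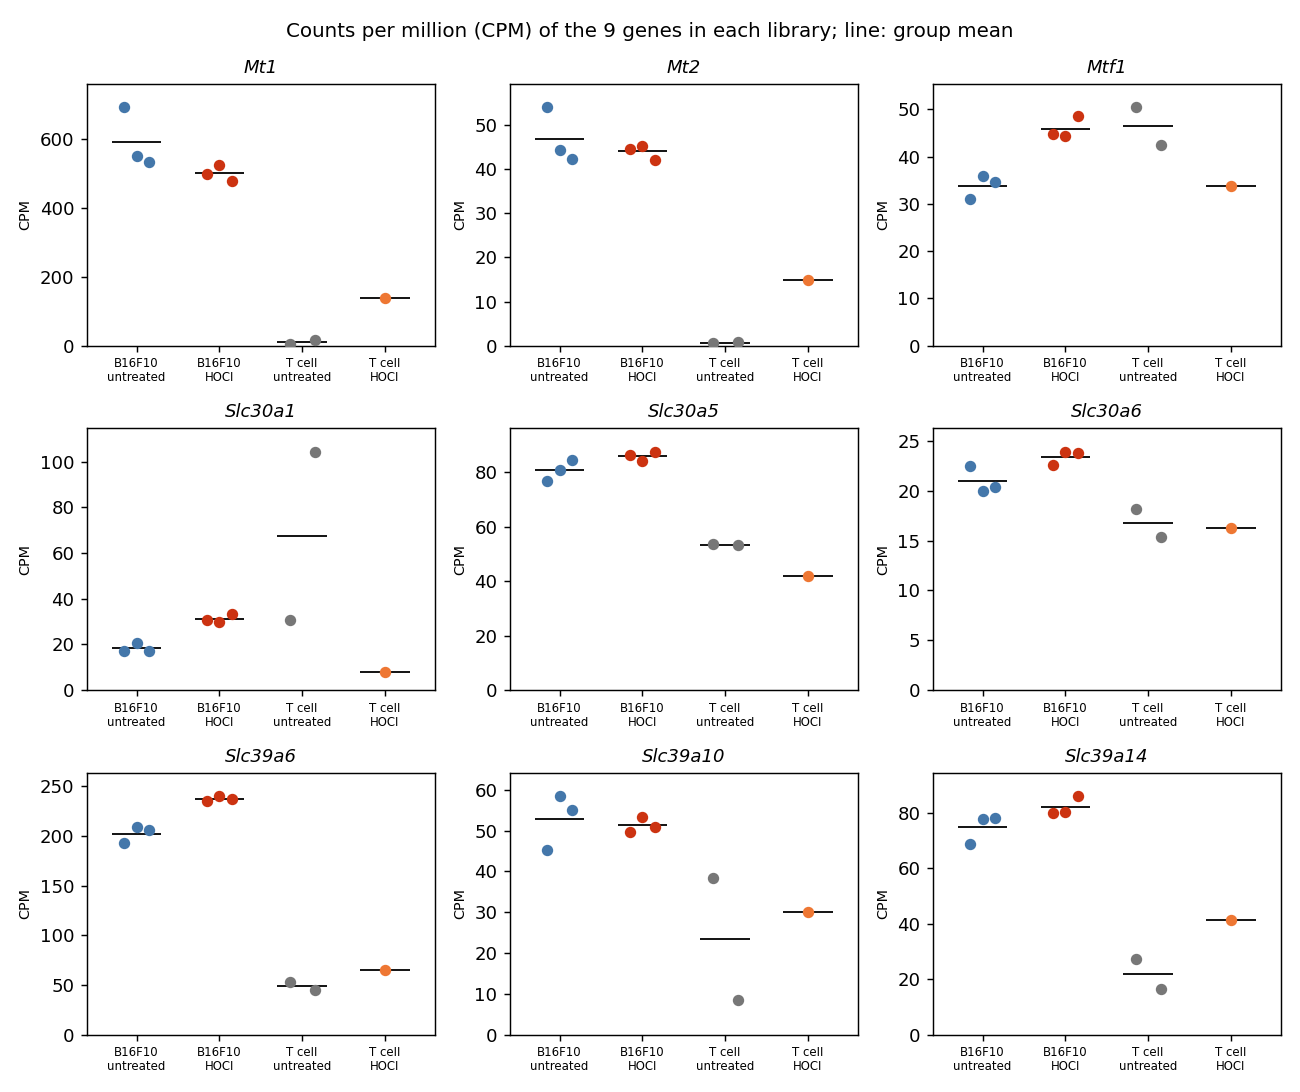
CPM of the 9 genes in each library, by group, with a separate linear axis from 0 for each gene; points are libraries and lines are group means. Slc30a1 lies at 17.1 to 20.5 CPM in untreated and 29.7 to 33.3 CPM in HOCl B16F10, and the single T cell HOCl library at 8.02 CPM.

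Mt1 and Mt2 encode the 2 broadly expressed mouse metallothioneins. Mt1 (ENSMUSG00000031765; chromosome 8, 94179082 to 94180327, plus strand, GRCm38) and Mt2 (ENSMUSG00000031762; chromosome 8, 94172664 to 94173568, plus strand) lie 5.51 kb apart. Mt3 and Mt4, the brain and epithelial forms, lie upstream in the same cluster, Mt3 18.5 kb before Mt2 and Mt4 13.6 kb before Mt3. The bases before the RefSeq start of each gene are shown because MTF1 is known to act through MREs near the start. They were searched for the MRE core, TGCACNC or TGCGCNC, on both strands, and its matches are in capitals. The sequences run 5′ to 3′ on the plus strand, are credited to RefSeq (GRCm38.p6), and cover chr8:94178839-94179088 for Mt1 and chr8:94172368-94172617 for Mt2.
Mt1: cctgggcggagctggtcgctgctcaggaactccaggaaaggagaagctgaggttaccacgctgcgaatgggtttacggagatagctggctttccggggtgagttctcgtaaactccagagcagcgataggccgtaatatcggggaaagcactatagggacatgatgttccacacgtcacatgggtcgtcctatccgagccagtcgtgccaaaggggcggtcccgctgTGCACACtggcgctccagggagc
Mt2: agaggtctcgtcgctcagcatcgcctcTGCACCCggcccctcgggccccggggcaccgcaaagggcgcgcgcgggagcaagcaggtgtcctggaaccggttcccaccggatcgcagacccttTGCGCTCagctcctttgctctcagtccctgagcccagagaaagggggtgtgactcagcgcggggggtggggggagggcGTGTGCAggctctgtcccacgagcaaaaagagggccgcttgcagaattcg

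Before these starts Mt1 had 1 MRE core (positions -23 to -17) and Mt2 had 3, of which the nearest lay at -50 to -44 in reverse orientation. Of 32851 RefSeq windows of the same 250 bases, 21.4% held at least 1 core and 1.26% at least 3. Mt2 also held 1 antioxidant response element core, the motif of NRF2 (TGACNNNGC, either strand), with the letters TGACTCAGC at -79 to -71, and 10.2% of windows held at least 1. GENCODE lists later starts for both genes, and the window before the most downstream of them was searched after the data were seen. For Mt1, whose later start is 152 bases downstream, that window held 5 MRE cores and 1 antioxidant core, and 0.0822% of the RefSeq windows held as many MRE cores. For Mt2 it held 4 MRE cores, as many as 0.304% of windows. Of these, 4 of the 5 Mt1 cores and all 4 Mt2 cores lie downstream of the printed bases. The counts also moved with the whole RefSeq window, which adds the 50 bases after the start. It held 3 MRE cores for Mt1 and 4 for Mt2, and 1.97% of whole windows held at least 3. A match is a run of letters and not a measured site, and the data hold no binding measurement.

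Mt1 read 691, 550.1 and 534 CPM in untreated replicates 1 to 3 and 497, 524 and 478 CPM in the HOCl replicates. Every HOCl library was below every untreated one, with untreated replicate 1 far above its group. The mean went from 592 ± 86.5 to 499.8 ± 23.4 CPM (SD, n = 3 each), a log2 fold change of -0.27 ± 0.09 (SE; edgeR quasi-likelihood adjusted p = 0.0397). Without untreated replicate 1 the log2 fold change was -0.14 ± 0.04 (edgeR adjusted p = 0.00491). Leaving out any 1 of the HOCl libraries ended the call, with edgeR adjusted p of 0.0557 to 0.120, as did library totals without TMM scaling (adjusted p = 0.0579).

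Mt2 read 54.0, 44.4 and 42.4 CPM untreated and 44.6, 45.4 and 42.1 CPM with HOCl. The groups overlapped, and untreated replicate 1 was again the highest library. Its log2 fold change was -0.12 ± 0.08 (edgeR adjusted p = 0.311) and -0.00 ± 0.05 without untreated replicate 1. Of the 554 stretches of 50 bases in Mt2 exons, 45.8% are shared with the antisense gene Gm45774, which had 13 to 40 counts in B16F10 against 1944 to 3313 for Mt2. Mt1 shared none with another gene.

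The ratio of Mt1 to Mt2 counts was steadier than either gene. It was 12.8, 12.4 and 12.6 in untreated and 11.1, 11.6 and 11.3 in HOCl libraries (12.6 ± 0.210 against 11.3 ± 0.205, SD, n = 3 each). The ranges did not overlap, and the 2-sided exact permutation p was 0.1, the smallest that 3 against 3 allows. The sum of both genes was 639 ± 92.7 CPM untreated and 544 ± 25.02 CPM with HOCl. Both transcripts are short, at 1085 bases for Mt1 and 511 for Mt2. Among the 2708 tested genes with a longest transcript below 1200 bases, the median log2 fold change with HOCl was -0.13 (quartiles -0.31 and 0.10), and -0.06 without untreated replicate 1. Mt1 lay between the lower quartile and the median of these genes and Mt2 at about their median. The part of transcript length in the fall of Mt1 was not tested.

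**Figure D2:**
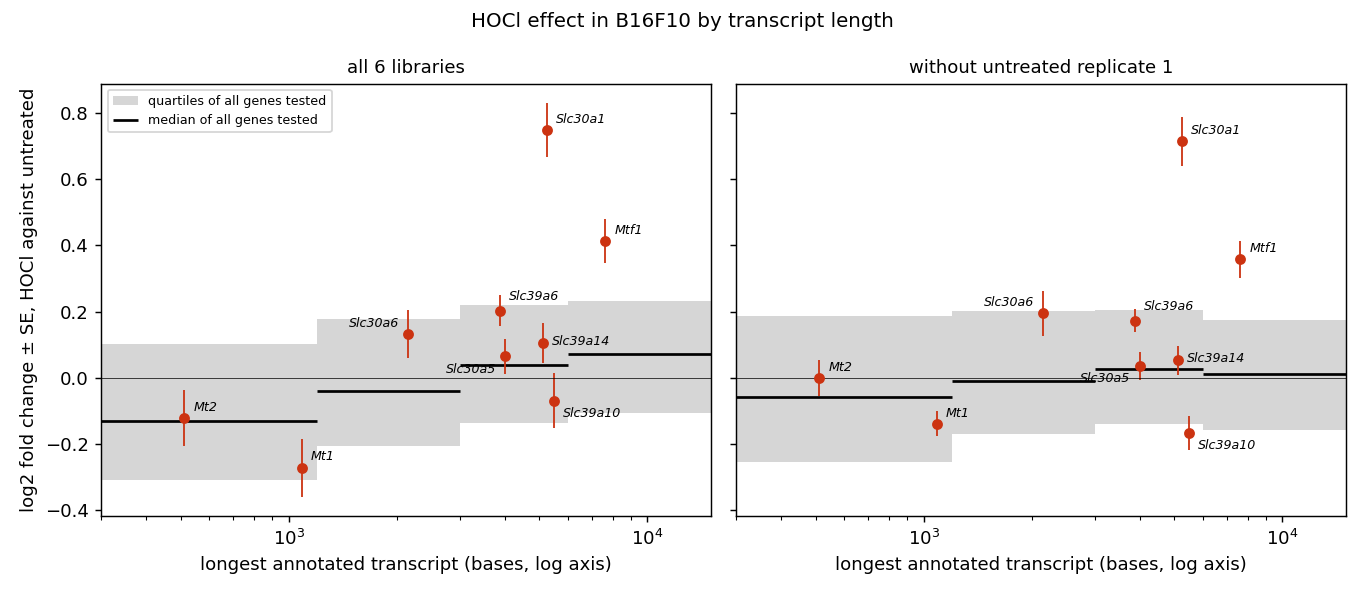
Log2 fold change (HOCl against untreated, ± SE) of each gene against the length of its longest annotated transcript (log axis), with the median and quartiles of all genes tested in 4 length classes; left, all 6 B16F10 libraries; right, without untreated replicate 1. Mt1 and Mt2 lie inside the quartiles of short genes, whose median is -0.13 at left and -0.06 at right, and Slc30a1 and Mtf1 lie above those of their class in both.

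Mtf1 encodes the zinc finger factor that reads free zinc. It (ENSMUSG00000028890; chromosome 4, 124802104 to 124849800, plus strand) read 31.1, 35.9 and 34.7 CPM untreated and 44.7, 44.3 and 48.6 CPM with HOCl. The lowest HOCl library was above the highest untreated one. The mean rose from 33.9 ± 2.50 to 45.9 ± 2.38 CPM, a log2 fold change of 0.41 ± 0.07 (edgeR adjusted p = 0.000856). The gene 1110065P20Rik overlaps Mtf1 on the opposite strand and shares 7.55% of its exonic stretches of 50 bases. It had 568 to 856 counts in B16F10, against 1591 to 2497 for Mtf1, and a log2 fold change of 0.05 ± 0.10. No MRE core or antioxidant core was found in the 250 bases before the RefSeq start of Mtf1.

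Slc30a1 encodes ZnT1, the exporter of the plasma membrane and a known MTF1 target. Its promoter is shown because the transcript had the largest change of the 9 genes; it covers chr1:191906531-191906780 on the plus strand (RefSeq, GRCm38.p6), with the MRE core in capitals.
Slc30a1: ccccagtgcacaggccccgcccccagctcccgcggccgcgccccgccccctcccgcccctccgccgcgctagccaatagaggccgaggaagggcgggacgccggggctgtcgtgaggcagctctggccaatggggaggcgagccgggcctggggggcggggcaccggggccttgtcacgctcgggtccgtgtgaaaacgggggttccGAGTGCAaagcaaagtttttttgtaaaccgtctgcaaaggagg

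That window held 1 MRE core in reverse orientation at -43 to -37 and 1 antioxidant core, GCCTTGTCA in reverse orientation, at -82 to -74. Slc30a1 (ENSMUSG00000037434; chromosome 1, 191906767 to 191913247, plus strand) read 17.3, 20.5 and 17.1 CPM untreated and 30.8, 29.7 and 33.3 CPM with HOCl. The groups were far apart compared with the spread inside each. The mean rose from 18.3 ± 1.89 to 31.3 ± 1.86 CPM, a log2 fold change of 0.75 ± 0.08 (edgeR adjusted p = 5.75e-05). Without HOCl replicate 3, the library with more T cell marker counts, it was 0.70 ± 0.09 (edgeR adjusted p = 0.000565). The antisense gene 1700034H15Rik shares 8.01% of the exonic stretches of Slc30a1 and had 4 to 12 counts in B16F10. The ratio of Mt1 to Slc30a1 counts, 2 genes that MTF1 is known to drive, was 32.7 ± 6.62 in untreated and 16.04 ± 1.66 in HOCl libraries. Every HOCl library was below every untreated one for Mt1 and above it for Slc30a1. The ratio therefore had to separate the groups and adds no further test.

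Slc30a5 and Slc30a6 encode ZnT5 and ZnT6, which pair to load zinc into the early secretory pathway. Slc30a5 (ENSMUSG00000021629; chromosome 13, 100802648 to 100833427, minus strand) read 76.9, 80.7 and 84.5 CPM untreated and 86.3, 84.3 and 87.5 CPM with HOCl. The ranges overlapped by a narrow margin, and the log2 fold change was 0.06 ± 0.05 (edgeR adjusted p = 0.386). Slc30a6 (ENSMUSG00000024069; chromosome 17, 74395608 to 74424221, plus strand) read 22.5, 19.9 and 20.4 CPM untreated and 22.6, 23.9 and 23.8 CPM with HOCl, with untreated replicate 1 almost level with the lowest HOCl library. Its log2 fold change was 0.13 ± 0.07 (edgeR adjusted p = 0.191), and without untreated replicate 1 it passed the test at 0.19 (edgeR adjusted p = 0.0298). The ratio of Slc30a5 to Slc30a6 counts was 3.87 ± 0.400 untreated and 3.67 ± 0.149 with HOCl (exact permutation p = 0.5). In the RefSeq promoter window, Slc30a5 held 1 MRE core before its start and Slc30a6 none. The whole window gave the same MRE counts, and 1 antioxidant core for Slc30a5 (12.4% of whole windows held at least 1).

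Slc39a6 and Slc39a10 encode ZIP6 and ZIP10, related importers of the plasma membrane that are known to form heteromers. Slc39a6 (ENSMUSG00000024270; chromosome 18, 24579881 to 24603817, minus strand) read 192, 209 and 206 CPM untreated and 235, 239.8 and 237 CPM with HOCl. The HOCl libraries lay in a tight band above each untreated library. The mean rose from 202 ± 8.78 to 237 ± 2.29 CPM, a log2 fold change of 0.20 ± 0.05 (edgeR adjusted p = 0.00687). Its longest transcript is 3882 bases. Among tested genes of 3000 to 6000 bases the quartiles were -0.14 and 0.22, so Slc39a6 lay inside them, near the upper 1. The part of transcript length in its rise was not tested. Elp2 overlaps Slc39a6 on the opposite strand, though without a shared exonic stretch of 50 bases, and its log2 fold change was -0.01 ± 0.05.

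Slc39a10 (ENSMUSG00000025986; chromosome 1, 46807544 to 46892852, minus strand) read 45.1, 58.4 and 55.1 CPM untreated and 49.5, 53.4 and 51.0 CPM with HOCl. The HOCl values fell inside the untreated range. Its log2 fold change was -0.07 ± 0.08 (edgeR adjusted p = 0.582). Untreated replicate 1 was the lowest of its group here, and without it Slc39a10 was called lower (-0.17, edgeR adjusted p = 0.0118). The ratio of Slc39a6 to Slc39a10 counts was 3.86 ± 0.359 untreated and 4.63 ± 0.131 with HOCl, without overlap (exact permutation p = 0.1, the smallest possible).

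Slc39a14 encodes ZIP14, an importer of zinc, manganese and iron. It (ENSMUSG00000022094; chromosome 14, 70303469 to 70351425, minus strand) read 68.9, 77.6 and 78.1 CPM untreated and 80.03, 80.2 and 85.9 CPM with HOCl. The ranges did not overlap, but the log2 fold change of 0.11 ± 0.06 did not pass (edgeR adjusted p = 0.215).

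In the authors' deposited table for B16F10, the same 4 genes were past an adjusted p of 0.05 and every sign was equal to the fit here. The share of all genes past it in that table was not counted. The authors' deposited table gave Slc30a1 0.70, Mtf1 0.40, Slc39a6 0.20 and Mt1 -0.25 on the log2 scale.

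**Figure D3:**
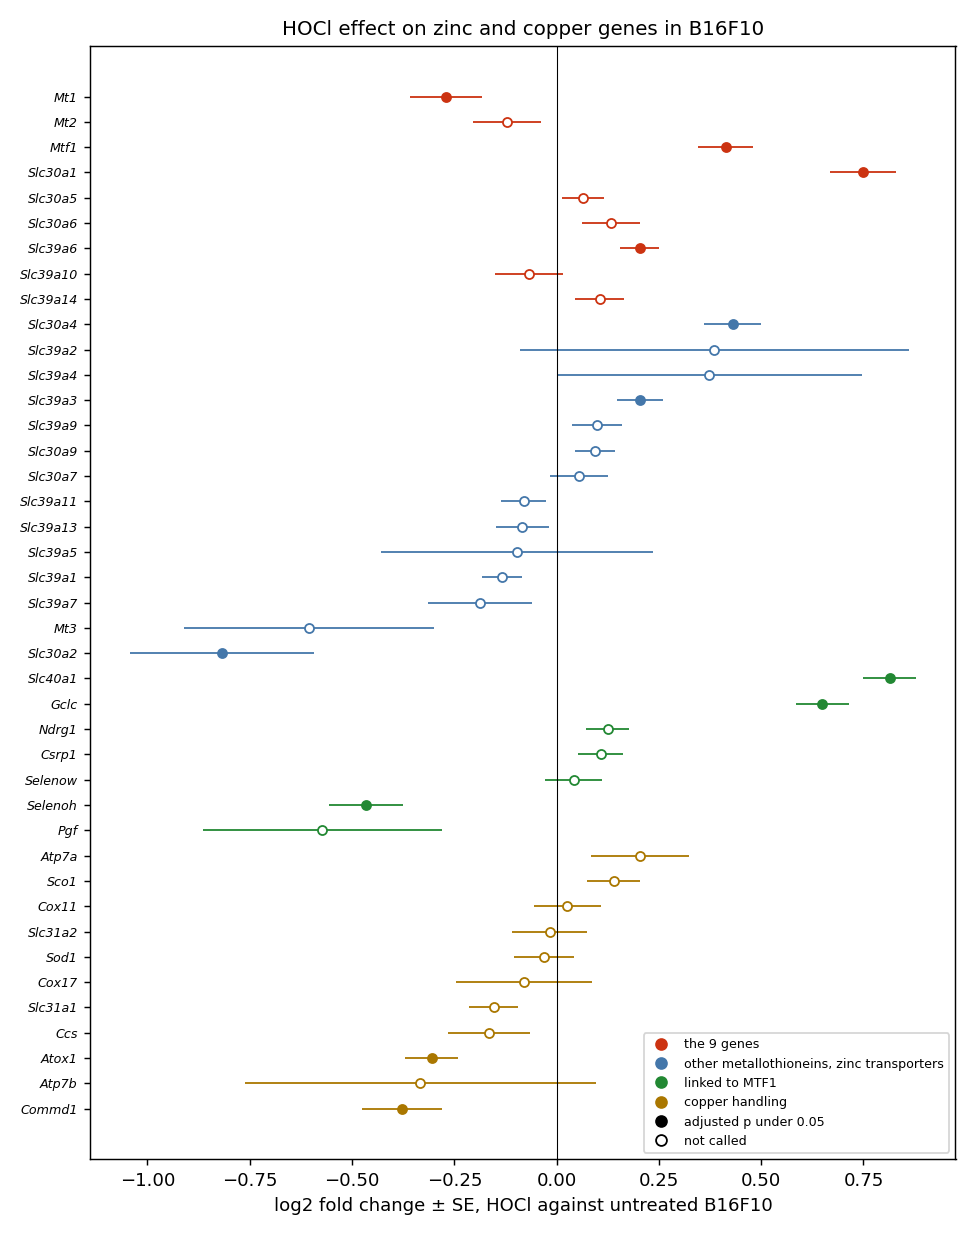
Log2 fold change (± SE) for HOCl against untreated B16F10 (3 and 3 libraries). Shown are the 9 genes and the tested genes among other metallothioneins and zinc transporters, genes linked to MTF1 and copper handling genes. Filled points passed the test. Slc30a1 at 0.75, Mtf1 at 0.41 and Slc39a6 at 0.20 passed the test upward with HOCl and Mt1 at -0.27 downward.

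Levels of different genes were compared per kb of annotated exon, as CPM per kb. In untreated B16F10, Mt1 stood first at 475 ± 69.4 CPM per kb, followed by Mt2 at 79.8 ± 10.6 and Slc39a6 at 49.7 ± 2.16. Then came Slc30a5 at 11.1 ± 0.525, Slc39a10 at 8.67 ± 1.13, Slc39a14 at 7.10 ± 0.494 and Slc30a6 at 6.81 ± 0.450. Mtf1 at 3.80 ± 0.281 and Slc30a1 at 3.49 ± 0.360 were last. Neighbours from Slc39a10 to Slc30a6, and Mtf1 and Slc30a1, had overlapping ranges of mean ± SD. With HOCl, Slc30a1 was at 5.97 ± 0.354 and Mtf1 at 5.15 ± 0.267 CPM per kb. Their order turned with the gene length used, since per kb of the longest transcript they were at 5.97 and 6.01. In untreated cells the same length gave 20.2 CPM per kb for Slc30a5, 14.6 for Slc39a14, 9.75 for Slc30a6 and 9.61 for Slc39a10, which put Slc39a10 below both Slc39a14 and Slc30a6.

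**Figure D4:**
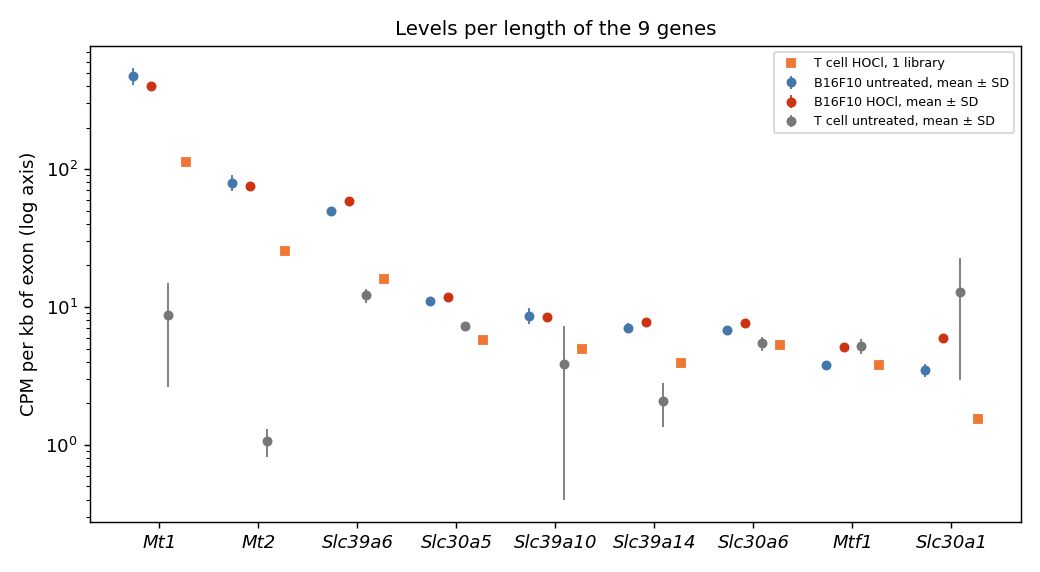
Level of each gene in CPM per kb of annotated exon (log axis), with points for group means and bars for SD where a group has more than 1 library. Mt1 and Mt2 lead in B16F10 at 475 and 79.8 CPM per kb and stand at 8.77 and 1.06 CPM per kb in untreated T cells.

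Of the 9 genes, the metallothioneins also differed most between the cell types. Against untreated T cells, untreated B16F10 had higher Mt1, Mt2, Slc39a6 and Slc39a14 and lower Mtf1 and Slc30a1. That is 4 of 9 genes higher and 2 lower, against 35.8% higher and 35.4% lower among the 18352 genes tested (71.1% in either direction). Mt1 was 5.53 and 16.3 CPM in the untreated T cell libraries, and the log2 difference was 5.48 ± 0.61 (edgeR adjusted p = 0.000497). Mt2 was 0.521 and 0.730 CPM there, with a log2 difference of 5.97 ± 0.30 (edgeR adjusted p = 2.61e-05). The importers Slc39a6, at 53.4 and 45.3 CPM in T cells, and Slc39a14, at 27.3 and 16.5 CPM, had log2 differences of 1.79 ± 0.14 and 1.54 ± 0.22 (edgeR adjusted p = 0.000121 and 0.00146). The untreated B16F10 libraries are those of the HOCl comparison, so the 2 comparisons share them. These 4 genes were higher in each B16F10 library than in either T cell library.

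The sensor and its exporter target ran the other way. Mtf1 read 50.4 and 42.4 CPM in untreated T cells, a log2 difference of -0.70 ± 0.15 (edgeR adjusted p = 0.00654). Slc30a1 read 30.7 and 104 CPM there, a log2 difference of -2.17 ± 0.51 (edgeR adjusted p = 0.0101). Both T cell libraries were above the 3 untreated B16F10 libraries, but they differed from each other 3.40-fold for Slc30a1. Without B16F10 untreated replicate 1 the edgeR adjusted p of Slc30a1 was 0.0506, and without T cell untreated replicate 2 its log2 difference was -0.88. The 2 untreated T cell libraries also differed by transcript length: the median log2 ratio of replicate 2 to replicate 1 was 0.65 for genes below 1200 bases and -0.69 from 6000 bases.

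The remaining 3 genes did not pass the test between the cell types. Slc30a5 read 53.7 and 53.3 CPM in T cells (log2 difference 0.35 ± 0.14, edgeR adjusted p = 0.0642). Its log2 difference was 0.31 without T cell untreated replicate 1 and 0.45 without replicate 2. Slc30a6 read 18.1 and 15.4 CPM (0.08 ± 0.17, edgeR adjusted p = 0.690). Slc39a10 read 38.3 and 8.58 CPM, a spread within T cells as wide as its distance from B16F10 (0.97 ± 0.56, edgeR adjusted p = 0.165). The log2 difference of Slc39a10 was 2.33 without T cell untreated replicate 1 and 0.33 without replicate 2. A fit without either of these leaves 1 T cell library and no spread within T cells, so only its effect size is given.

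For T cells given HOCl there was 1 library and hence no test. It read Mt1 at 140 CPM (95% Wilson interval 133 to 146) and Mt2 at 14.9 CPM (12.9 to 17.1), above both untreated T cell libraries. Slc30a1 was at 8.02 CPM (6.61 to 9.72) and Mtf1 at 33.7 CPM (30.7 to 37.0), below both. Slc39a6 was at 65.5 CPM and Slc39a14 at 41.5 CPM, above both, and Slc30a5 at 41.8 CPM, below both, while Slc30a6 at 16.3 CPM and Slc39a10 at 30.0 CPM lay between them. These positions depend on the denominator, which was 37.4% mitochondrial in this library. Per M of counts other than mitochondrial, a scale chosen after seeing the data, Slc30a1 was at 12.8 against 31.2 and 106 in untreated T cells and was the only 1 of the 9 genes below both. Mtf1 was then at 53.9 against 51.2 and 43.3, and Slc30a5 at 66.8 against 54.5 and 54.4. Mt1 at 223 and Mt2 at 23.8 stayed above both, as did Slc39a6 and Slc39a14, and Slc30a6 and Slc39a10 moved above both. Of 46567 genes with a count in any library, 66.6% had their highest CPM in the T cell HOCl library. A place above both untreated T cell libraries was therefore common among all genes. In that library the 8 melanocyte markers stood at 25.4 to 30.9% of their untreated B16F10 level (median 27.04%), against 0.0482 to 0.918% in untreated T cells. Mt1 stood at 23.6% and Mt2 at 31.7% of theirs, and the other 7 genes at 32.3 to 99.5%. The 8 CD8 T cell markers stood at 6.89 to 26.8% of their untreated T cell level, and none of either marker list was at 0. The part of these in the T cell values was not tested. The authors' deposited table for T cells gave Mt1 2.74, Mt2 3.56 and Slc30a1 -3.88 on the log2 scale. The other 6 genes lay from -1.25 (Mtf1) to 0.13 (Slc39a14). The series holds 1 T cell library with HOCl, so the adjusted p-values of that table are not given.

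**Figure D5:**
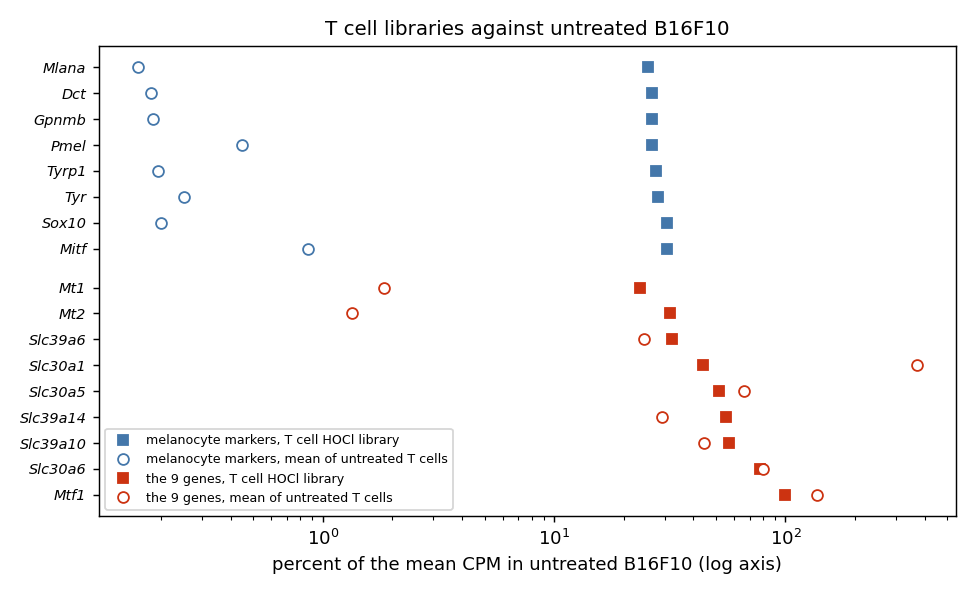
Level in the single T cell HOCl library as a percent of the untreated B16F10 mean, for the 9 genes and 8 melanocyte markers. The markers lie at 25.4 to 30.9%, Mt1 at 23.6% and Mt2 at 31.7%, and Mtf1 is highest at 99.5%.

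Among 20 other metallothionein and zinc transporter genes, 14 were tested, 2 rose and 1 fell, with a median log2 fold change of -0.01. Over every gene tested 14.7% rose and 13.5% fell, so these counts, and those of the lists that follow, are read against that. Only 1 of the 14 rose without HOCl replicate 1, HOCl replicate 2 or untreated replicate 2. Over every gene 1705, 1693 and 2199 rose in these fits, against 2366 in the main fit. Slc30a2, the gene that fell, did not pass without HOCl replicate 2, where 1432 fell over every gene. Slc30a4, which encodes the vesicular exporter ZnT4, rose from 43.9 ± 4.38 to 60.3 ± 0.196 CPM (0.43 ± 0.07, edgeR adjusted p = 0.000788). Slc39a3, which encodes the importer ZIP3, rose from 49.0 ± 1.56 to 57.4 ± 2.21 CPM (0.20 ± 0.06, edgeR adjusted p = 0.0176). Slc30a2, which encodes the vesicular exporter ZnT2, fell from 1.62 ± 0.194 to 0.937 ± 0.0945 CPM (-0.82 ± 0.23, edgeR adjusted p = 0.0172), at 45 to 113 counts a library. Mt3 read 0.855 ± 0.230 and 0.575 ± 0.0622 CPM (edgeR adjusted p = 0.166), and Mt4 had at most 1 count in a B16F10 library.

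Of 8 further genes linked to MTF1, 7 were tested, 2 rose and 1 fell (median 0.11), against 14.7% and 13.5% of every gene. Without untreated replicate 1, 4 rose, where 2819 rose over every gene. Slc40a1, which encodes the iron exporter ferroportin, rose from 13.8 ± 0.130 to 24.7 ± 0.129 CPM (0.81 ± 0.07, edgeR adjusted p = 7.82e-06). Gclc, the catalytic subunit gene of glutamate-cysteine ligase, rose from 79.9 ± 7.35 to 128 ± 3.99 CPM (0.65 ± 0.06, edgeR adjusted p = 3.43e-05). Both are also known targets of NRF2. Selenoh, which encodes a nuclear selenoprotein, fell from 22.2 ± 2.83 to 16.4 ± 0.416 CPM (-0.47 ± 0.09, edgeR adjusted p = 0.00252), and its longest transcript is 783 bases.

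Metallothioneins also bind copper, and of 12 copper handling genes 11 were tested, 0 rose and 2 fell in the edgeR test (median -0.08), against 14.7% and 13.5% of every gene. Without HOCl replicate 3, 1 fell, where 1410 fell over every gene. Atox1, which encodes the copper chaperone of the secretory pathway, fell from 103 ± 8.02 to 85.1 ± 4.18 CPM (-0.30 ± 0.06, edgeR adjusted p = 0.00426), and its longest transcript is 541 bases. Commd1, linked to copper export, fell from 20.7 ± 2.89 to 16.3 ± 0.790 CPM (-0.38 ± 0.10, edgeR adjusted p = 0.0120).

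Over the 9 libraries, the genes whose log2(CPM + 1) ran most like Mt1 were Prmt7, Fam129b and Chchd6 (Pearson r 0.999, 0.998 and 0.998), with Mt2 at rank 68 (0.992). For Slc30a1 they were Ppp6c, Zfp68 and Zkscan6 (0.993, 0.989 and 0.987). Mt1 and Slc30a1 had an r of -0.45. These values are a description of 9 libraries of unequal depth, which fall by cell type and include the T cell HOCl library.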

How the data were processed

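The 9 libraries were of B16F10 (3 untreated, 3 with HOCl) and of T cells (2 untreated, 1 with HOCl). The deposited files hold raw counts of reads per gene, made by the authors. The submitters' processing notes name the genome build mm10 and the tools STAR 2.7.1a, featureCounts 1.6.0, DESeq2 1.22.2 and FastQC 0.11.8. Strand setting, annotation release and multi-mapping rules were not given in the sources used here. The log2 fold changes and adjusted p-values in the authors' deposited tables were only set beside the values computed here. Those tables name their groups by number, so their signs were taken as deposited.

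Counts per M (CPM) are counts relative to the library's gene total. Genes kept by filterByExpr were tested with edgeR 4.0.16 in R 4.3.3 (TMM scaling, robust quasi-likelihood F test). P-values were Benjamini-Hochberg adjusted over every gene tested, and the threshold was 0.05. HOCl was tested in the 6 B16F10 libraries alone. Untreated B16F10 was tested against untreated T cells over those 5 libraries. The standard error (SE) is the absolute log2 fold change over the square root of F. The single T cell HOCl library was not tested. Its 95% Wilson intervals, and the limit of 3 counts for a gene at 0 (0.0489 to 0.0654 CPM, and 0.234 CPM in that library), cover counting error only. The edgeR fit was tested on simulated counts with set changes, of which fewer were recovered in the design between the cell types. Those counts held no library set apart by transcript length, so they do not test such a case.

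All 9 listed genes are reported. Beside them stand up to 3 genes per direction from each of 3 related lists, by absolute log2 fold change among genes past the threshold, and the 3 genes most like Mt1, Slc30a1 and Slc39a14 over the 9 libraries; the result for Slc39a14 is not reported here. The genes and lists were chosen with earlier results of these data known. Gene positions, exons and transcript lengths are from GENCODE M21 on GRCm38, which held 54809 of the 54838 genes. Promoter windows are RefSeq's, on GRCm38.p6, with 250 bases before and 50 after the start. They held 7 of the 9 genes.

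Alternatives were scaling by DESeq2 size factors or by library totals alone, no filter, a stricter filter (1 CPM in 3 libraries and 50 mean counts), a test against a 1.5-fold change (B16F10 only), a fit over all 9 libraries, a block on replicate number, DESeq2 1.42.0 in place of edgeR, each replicate left out in turn, another gene length and the whole promoter window. The promoter window before a later start of Mt1 and Mt2, the longest transcript as gene length with HOCl, and T cell values per M of non-mitochondrial counts were added after seeing the data.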

Additional observations from a re-analysis of the deposited data

Results flagged for a closer look

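In CPM over all counts, Mt1, Mtf1 and Slc30a1 each stood on opposite sides in the 2 cell types, Mtf1 on that scale only. Mt1 was lower in every HOCl library of B16F10 and, at 140 CPM, higher in the T cell HOCl library than in both untreated T cell libraries. Mtf1 and Slc30a1 were higher in every HOCl library of B16F10 and lower in the T cell HOCl library, at 33.7 and 8.02 CPM, than in both untreated ones. Per M of counts other than mitochondrial, a scale chosen after seeing the data, Slc30a1 stayed below both untreated T cell libraries (12.8 against 31.2 and 106) and Mt1 above both, but Mtf1 was above both (53.9 against 51.2 and 43.3). The difference between the cell types was not tested, since the T cell arm with HOCl has 1 library. That library held 37.4% mitochondrial counts and 9038 CPM of melanocyte marker transcripts, and the highest CPM for 66.6% of genes with a count in any library. Mt1 stood there at 23.6% of its untreated B16F10 level and the melanocyte markers at 25.4 to 30.9% of theirs. The part of these in the values was not tested.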

How the results depend on the processing

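Over 14 alternatives, Slc30a1, Mtf1 and Slc39a6 kept a positive log2 fold change with HOCl in B16F10 and stayed past the threshold in 12 of them. With all 9 libraries in 1 fit, or tested against a 1.5-fold change, 0 of the 9 genes were called in either direction; over every gene these gave 11 higher and 26 lower, and 28 higher and 45 lower. The widened fit takes its spread from the T cell libraries as well. Mt1 kept its sign in all 14 but lost its call in 6. Library totals without TMM called 0 of the 9 genes lower, against 1808 over every gene. Leaving out 1 replicate in turn, 3 to 4 of the genes were called higher and 0 to 2 lower, against 1605 to 2819 and 1410 to 2634 over every gene. The log2 fold change of Slc39a10 then ran from -0.17 to 0.0092, changing sign without untreated replicate 2.

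For untreated B16F10 against T cells, leaving out 1 B16F10 replicate called 4 of the 9 genes higher and 1 to 2 lower. Over every gene it called 5344 to 5409 higher and 5588 to 5599 lower. Leaving out a T cell replicate leaves 1 library and no spread in that group, so its calls are not given. Over both kinds of fit, the log2 difference of Slc30a6 ran from -0.062 (without B16F10 untreated replicate 1) to 0.16 (without T cell untreated replicate 1). With the stricter filter it was -0.26. Slc30a5 passed with library totals without TMM (0.59) and with all 9 libraries (0.39), and was at 0.0025 with the stricter filter. Library totals without TMM moved the median log2 difference of the genes tested by 0.24, no filter by 0.11 and the stricter filter by -0.34.

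In the T cell HOCl library, dividing by counts other than mitochondrial, an alternative chosen after seeing the data, turned the log2 ratio to the untreated mean from -0.46 to 0.19 for Mtf1, from -0.36 to 0.29 for Slc30a5 and from -0.043 to 0.61 for Slc30a6; the other 6 genes kept their sign.

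The replicate numbers were not taken to pair the libraries, since the labels tie them to nothing and same-numbered B16F10 libraries deviated together only weakly (r of 0.035, -0.0035 and 0.0015). With the replicate block, the same number of the 9 genes was called in B16F10 (3 higher and 1 lower), with 2726 higher and 2567 lower over every gene. Between the cell types the block gave 5320 higher and 4763 lower, 5 of the 9 genes higher, now with Slc39a10 (1.25), and 1 lower, without Mtf1 (-0.72, edgeR adjusted p = 0.140).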

Other observations

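A pair of zinc importer genes, chosen after their values were seen, stood far higher in T cells than in B16F10. Slc39a4, which encodes the intestinal importer ZIP4, read 23.9 and 15.6 CPM in untreated T cells and 0.415 ± 0.136 CPM in untreated B16F10 (log2 difference -5.78 ± 0.37, B16F10 against T cells, edgeR adjusted p = 5.59e-05). Slc39a8, which encodes ZIP8, read 3.93 and 2.96 CPM in untreated T cells and 0.118 ± 0.0178 CPM in untreated B16F10, at 6 to 10 counts a library over the 6 B16F10 libraries (-5.08 ± 0.38, edgeR adjusted p = 9.16e-05). In the T cell HOCl library Slc39a4 read 21.7 CPM and Slc39a8 10.7 CPM.

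Slc30a2 was at 15.4 CPM in the T cell HOCl library, against 0.160 and 0.0384 CPM in untreated T cells and 0.856 to 1.84 CPM over the 6 B16F10 libraries, and Mt3 at 3.58 CPM, against 0.160 and 0 CPM. These 2 genes are not particular in this: of 46567 genes with a count in any library, 66.6% had their highest CPM there.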
